A study of Mus musculus with 25 samples.

Results

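The genes described here are 8 genes of cholesterol synthesis and its control, chosen by symbol from the 54752 gene rows of each count file: Hmgcs1, Idi1, Fdft1, Sqle, Lss, Dhcr7, Insig1 and Srebf2. None of them is itself an uptake gene, and uptake is described from a wider list. All 8 were found and all 8 passed the filter on low counts in every fit. RNA was sequenced from epididymal (eWAT) and inguinal (iWAT) white adipose tissue of male C57BL/6N mice, in 25 libraries. The study asked how loss of Acod1, which encodes the mitochondrial enzyme that makes itaconate, changes the response of white fat to a high-fat diet.

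In each depot the groups were wild type mice fed a normal chow diet (WT ND), wild type mice fed a high-fat diet (HFD) with 60% of calories from fat (WT HFD), and Acod1-/- mice fed the same HFD (KO HFD). The eWAT groups held 4, 5 and 5 libraries and the iWAT groups 3, 5 and 3. Diets began at 5 weeks of age and lasted 16 weeks by the labels, except 17 weeks for iWAT KO HFD 2 and 18 weeks for iWAT KO HFD 3. The Acod1-/- mice carried a germline deletion in every tissue and were littermates of the wild type mice. No ND-fed Acod1-/- mice were among the libraries analysed, so the genotype comparison holds on HFD only, and the labels do not say whether the eWAT and iWAT libraries came from the same mice.

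Cells make cholesterol from acetyl-CoA through the mevalonate pathway. When sterols in the endoplasmic reticulum run low, the transcription factor SREBP-2 is carried to the Golgi by SCAP, cut there, and moves to the nucleus to switch on genes of synthesis and uptake, while INSIG proteins hold the SCAP complex back when sterols are plentiful. Fat cells store much of the body's free cholesterol in their lipid droplets and make little of it compared with liver. Hmgcs1 encodes the cytosolic HMG-CoA synthase, an early enzyme of the mevalonate pathway. Idi1 encodes the isomerase of isopentenyl diphosphate, and Fdft1 encodes squalene synthase, the first enzyme committed to sterols. Sqle (squalene epoxidase) and Lss (lanosterol synthase) form the ring system, and Dhcr7 encodes the reductase of the last step to cholesterol. Insig1 encodes the sterol-regulated retention protein and is itself a target of SREBP factors, and Srebf2 encodes SREBP-2.

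On GRCm38, Hmgcs1 lies on the forward strand at chr13:119690379-119708260, Idi1 at chr13:8885501-8892451, Sqle at chr15:59315077-59331192 and Srebf2 at chr15:82147181-82205379. Lss lies at chr10:76531588-76557138, Dhcr7 at chr7:143823145-143848410 and Insig1 at chr5:28071363-28078662, all on the forward strand, and Fdft1 at chr14:63145150-63179578 on the reverse strand. The RefSeq promoter table (GRCm38.p6, from 250 bases before to 50 after a transcript start) matched 6 of the 8 symbols, with 3 entries for Dhcr7 and 1 each for Hmgcs1, Idi1, Insig1, Lss and Srebf2. Windows were searched on both strands for TCACNCCAC (a sterol regulatory element, SRE), CCAAT (the NF-Y box) and GGGCGG (the Sp1 box), since SREBP factors are known to act beside NF-Y and Sp1. Of the genes matched, only Hmgcs1 held the SRE letters, as TCACCCCAC at positions -137 to -129 from the start, where 1.24% of all 32851 promoters held them. NF-Y and Sp1 boxes were present in at least 1 entry of each of the 6 genes, against 37.4% and 35.7% of all promoters, and no matches overlapped. A match is a description of letters, not evidence of a bound site. The 250 bases before the start are shown for the synthesis gene and the sensor with the highest levels per length, Hmgcs1 and Insig1, and for Srebf2, with SRE and NF-Y matches in capitals. All are on the forward strand, Hmgcs1 at chr13:119690101-119690350, Insig1 at chr5:28071162-28071411 and Srebf2 at chr15:82147019-82147268.
Hmgcs1: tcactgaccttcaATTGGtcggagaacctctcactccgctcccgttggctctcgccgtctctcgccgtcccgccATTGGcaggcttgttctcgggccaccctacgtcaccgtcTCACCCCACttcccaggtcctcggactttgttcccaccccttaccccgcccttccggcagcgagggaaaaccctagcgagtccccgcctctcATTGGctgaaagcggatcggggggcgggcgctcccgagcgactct
Insig1: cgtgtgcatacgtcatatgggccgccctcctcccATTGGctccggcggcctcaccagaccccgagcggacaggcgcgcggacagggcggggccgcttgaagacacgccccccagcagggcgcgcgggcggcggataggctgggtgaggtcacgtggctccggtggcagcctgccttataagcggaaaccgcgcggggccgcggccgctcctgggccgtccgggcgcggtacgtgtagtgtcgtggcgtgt
Srebf2: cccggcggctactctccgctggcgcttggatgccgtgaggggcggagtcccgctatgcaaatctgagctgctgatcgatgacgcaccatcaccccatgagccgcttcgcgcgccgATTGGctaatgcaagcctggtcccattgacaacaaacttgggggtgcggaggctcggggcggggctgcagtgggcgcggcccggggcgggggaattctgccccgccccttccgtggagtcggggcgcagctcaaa
Hmgcs1 held 3 NF-Y boxes before the start, read as ATTGG on the forward strand, and Insig1 and Srebf2 held 1 each.

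Depth ranged from 31.4 to 52.3 M reads on genes in a library (M, 1000000 reads), with a median of 42.1 M. Acod1 itself had between 0 and 9 reads in every library, wild type included, and its counts say nothing on the genotype labels. The tissue labels were checked by markers. Adipocyte markers (10) summed to 25240 to 66263 CPM over all libraries, and mesothelial markers, of the lining of visceral fat, to 38.5 to 160 CPM in eWAT and 0.347 to 8.06 CPM in iWAT. Marker sums are CPM without TMM scaling. They differed among libraries and are given beside the results they touch. Libraries that stood apart were iWAT KO HFD 2 and eWAT WT ND 2, with 569 and 414 CPM of 6 mammary and skin epithelium markers against at most 79.9 in any other library. The latter also had 8930 CPM of epididymis epithelium markers, against 2.02 to 80.3 CPM in the other ND-fed eWAT libraries. Another was iWAT WT ND 1, with 8218 CPM of skeletal muscle markers.

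Per length, Insig1 and Hmgcs1 had the highest mean levels of the 8 transcripts in each of the 6 groups. FPKM values (reads divided by the cDNA length and by the total of reads on genes, as the authors deposited them) are used for this comparison between genes. In eWAT of ND-fed wild type mice they were 36.1 ± 6.57 for Insig1, 31.8 ± 12.7 for Hmgcs1, 11.2 ± 1.87 for Fdft1, 6.67 ± 1.41 for Srebf2, 3.47 ± 0.656 for Idi1, 3.06 ± 1.01 for Sqle, 2.62 ± 0.401 for Lss and 1.60 ± 0.233 for Dhcr7 (SD, n = 4). In eWAT of HFD-fed wild type mice Insig1 reached 152 ± 31.7 and Hmgcs1 96.4 ± 21.9 FPKM, while Sqle stayed at 2.97 ± 0.721 and Idi1 at 1.92 ± 0.678 (SD, n = 5).

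For comparison of 1 gene between libraries, levels are given as CPM (reads per 1000000 reads on genes, scaled between libraries by TMM), always in the order of the library numbers. Differences are log2 fold changes fitted to the counts by edgeR's quasi-likelihood test with their standard errors, and a gene was called when its Benjamini-Hochberg adjusted p over all genes tested was under 0.1. When the 6 groups were ordered by their median for each gene, the ranges of neighbouring groups overlapped in all but 4 of 40 neighbouring pairs. In those 4, Hmgcs1 and Insig1 were higher in iWAT than in eWAT of ND-fed mice, Dhcr7 was higher in eWAT of KO HFD than of WT ND mice, and Srebf2 was higher in iWAT of ND-fed mice than in any other group. Whether a lower level came from fewer cells of a type or from less RNA per cell cannot be told apart in bulk tissue.

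**Figure D1:**
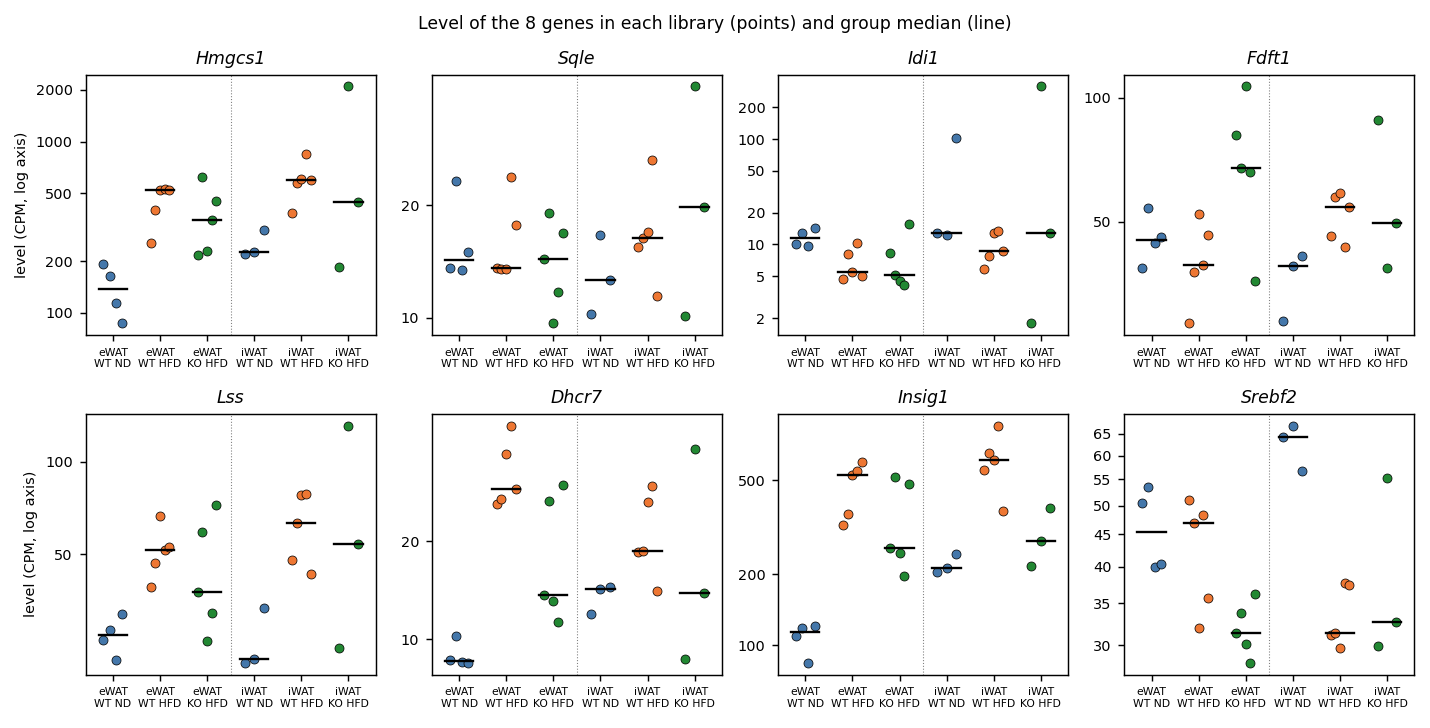
Level of each of the 8 genes in CPM on a log axis, with 1 point per library (blue WT ND, orange WT HFD, green KO HFD) and a line at the median of each group. Insig1, Hmgcs1, Lss and Dhcr7 of eWAT lie higher in all WT HFD libraries than in all WT ND libraries, and 1 iWAT KO HFD library stands far above the others for Hmgcs1 (2098 CPM) and Idi1 (316 CPM).

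In eWAT, HFD feeding of wild type mice raised 4 of the 8 genes, Insig1, Dhcr7, Hmgcs1 and Lss, by 1.88-fold to 4.39-fold. Among all genes tested, 24.8% were called higher, and 51.8% in either direction. Insig1, the sterol-regulated brake, measured 109, 118, 84.2 and 120.1 CPM in ND-fed and 325, 359, 527, 549 and 601 CPM in HFD-fed wild type mice. Every HFD-fed library thus lay above every ND-fed one, and the log2 fold change was 2.13 ± 0.30 (SE, adjusted p = 0.000389). Hmgcs1 measured 194, 163, 114 and 86.9 CPM on ND and 254, 396, 519.5, 529 and 525 CPM on HFD. Again the groups were apart, with a log2 fold change of 1.67 ± 0.34 (SE, adjusted p = 0.0023).

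Dhcr7 and Lss, of the late pathway, rose as well. Dhcr7 measured 8.62, 10.2, 8.51 and 8.47 CPM on ND and 26.0, 26.9, 36.998, 45.2 and 28.8 CPM on HFD, a log2 fold change of 1.87 ± 0.29 (SE, adjusted p = 0.000601). Lss measured 26.3, 28.4, 22.5 and 32.0 CPM on ND and 39.1, 46.8, 66.7, 51.5 and 52.8 CPM on HFD, a log2 fold change of 0.91 ± 0.26 (SE, adjusted p = 0.0140). Neither gene's groups overlapped. In all, the groups were apart for 4 of the 8 genes, against 35% of all genes. These 4 calls held in each of the 22 alternative fits of this comparison, among them every library left out in turn.

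Sqle, Idi1 and Fdft1 were not called higher. Squalene epoxidase, Sqle, measured 13.6, 23.2, 13.4 and 15.04 CPM on ND and 13.6, 13.5, 13.5, 23.9 and 17.7 CPM on HFD, with a log2 fold change of 0.01 ± 0.24 (SE, adjusted p = 0.970). Its groups overlapped throughout. Idi1 went the other way, with 10.2, 13.0, 9.70 and 14.3 CPM on ND and 4.64, 8.10, 5.45, 10.3 and 5.02 CPM on HFD. Only the highest HFD-fed library reached the ND range, and the log2 fold change of -0.81 ± 0.37 was just called (SE, adjusted p = 0.0938, against 26.9% of genes called lower). That call was lost in 12 of 22 alternative fits. Once the series of library numbers in the column headers (header series, described below) was added to the model, the value was -0.20 (adjusted p = 0.805). Fdft1 (-0.16 ± 0.25, adjusted p = 0.612) and Srebf2 (-0.11 ± 0.15, adjusted p = 0.586) were not called in eWAT on HFD.

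Over the 8 genes the median log2 fold change was 0.46, where that of all genes tested was -0.04. Macrophage markers moved with this comparison. Summed over 10 markers, none of them near 0 in any group, they were at 483 to 963 CPM in ND-fed and 1405 to 6078 CPM in HFD-fed wild type mice, and 9 of 10 were called higher and 1 lower. Adipocyte markers, also 10, summed to 45703 to 64303 CPM on ND and 25240 to 53790 CPM on HFD, with 5 called lower and 1 higher. Of 6 fibroblast and progenitor markers 5 were called higher, with sums of 1662 to 2265 CPM on ND and 2725 to 5979 CPM on HFD, and of 6 endothelial markers 5 were lower, with sums of 674 to 1192 and 350.2 to 626 CPM. The part of these cell types in the changes was not tested. Within the HFD-fed wild type group, library 1 had the highest macrophage sum and the lowest Hmgcs1, Lss, Dhcr7 and Insig1 levels of the 5. The library numbers in the column headers fall into 2 series, called header series here. What the series stand for is not given in the sources used here. All ND-fed libraries belonged to the second, which held 1 of the 5 HFD-fed wild type eWAT libraries, number 5. In that library all 4 called genes also lay above all ND-fed libraries.

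**Figure D2:**
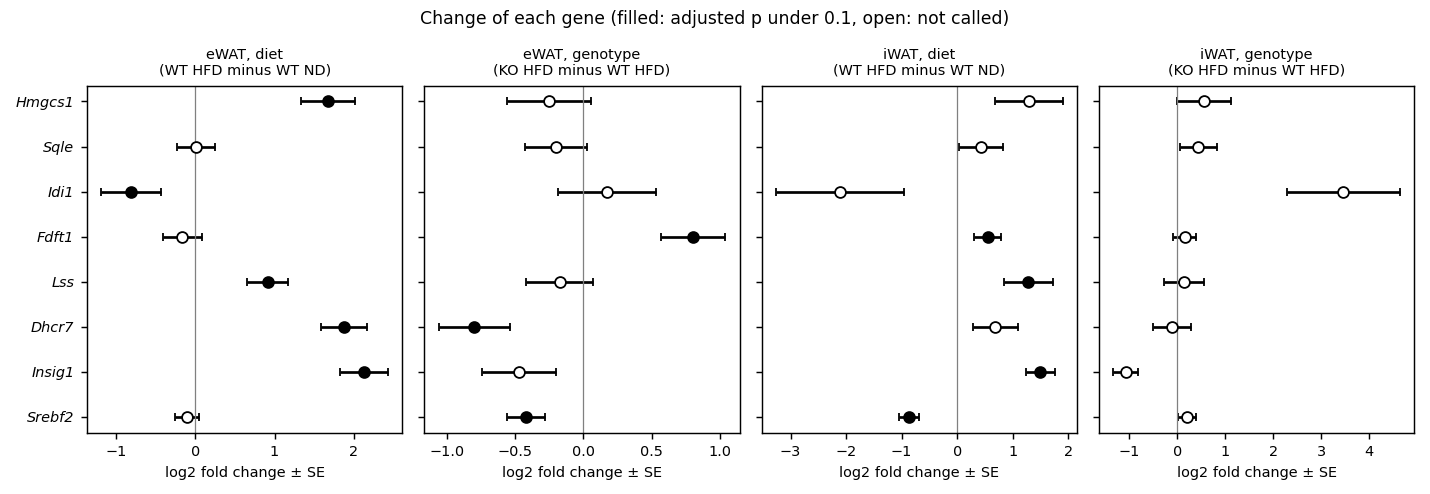
Log2 fold change with its standard error for each gene in the diet and genotype comparisons of both depots, filled where the adjusted p was under 0.1 and open where it was not. Insig1 and Lss are filled to the right for diet in both depots, and no gene is filled for genotype in iWAT. Horizontal scales differ between panels.

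Loss of Acod1 on HFD was accompanied in eWAT by higher Fdft1 and lower Dhcr7 and Srebf2, while Insig1, Hmgcs1 and Lss, which HFD had raised, were not called. Among all genes 9.13% were called higher and 10.8% lower, 19.9% in all. Dhcr7 measured 26.0, 26.9, 36.998, 45.2 and 28.8 CPM in WT HFD and 13.7, 26.6, 13.1, 11.3 and 29.6 CPM in KO HFD mice. Knockout libraries 2 and 5 thus lay inside the wild type range and the other 3 below it, with a log2 fold change of -0.80 ± 0.26 (SE, adjusted p = 0.0612). Srebf2 measured 50.9, 46.9, 32.0, 48.4 and 35.7 CPM in WT HFD and 31.3, 33.8, 30.2, 28.2 and 36.2 CPM in KO HFD mice. Of the KO HFD libraries, numbers 1, 3 and 4 lay under the lowest wild type library, and the log2 fold change was -0.42 ± 0.14 (SE, adjusted p = 0.0653).

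Insig1 showed the same split among knockout mice as Dhcr7, at 258, 519, 246, 197 and 483 CPM in KO HFD against 325, 359, 527, 549 and 601 CPM in WT HFD mice. Libraries 1, 3 and 4 lay below the wild type range and libraries 2 and 5 inside it, and the log2 fold change of -0.47 ± 0.27 was not called (SE, adjusted p = 0.262). Lss measured 37.7, 59.2, 26.1, 32.2 and 72.5 CPM in KO HFD mice, with the same libraries 2 and 5 highest, and a log2 fold change of -0.18 ± 0.24 (SE, adjusted p = 0.674). Hmgcs1 in these mice measured 218, 621, 231, 351 and 447 CPM (log2 fold change -0.25 ± 0.31, adjusted p = 0.6249). For Sqle and Idi1 the log2 fold changes were -0.20 ± 0.23 (adjusted p = 0.602) and 0.17 ± 0.36 (adjusted p = 0.783).

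Fdft1 was the 1 gene of the 8 called higher with genotype in eWAT. In WT HFD mice it measured 28.4, 37.8, 52.3, 39.3 and 46.4 CPM and in KO HFD mice 81.3, 67.5, 106, 66.1 and 35.8 CPM. Knockout libraries 1 to 4 all exceeded the highest wild type library, and library 5 lay inside the wild type range. The log2 fold change was 0.81 ± 0.23 (SE, adjusted p = 0.0414), or 1.75-fold. None of the 8 genes had groups fully apart in this comparison, against 7.02% of all genes, and the median log2 fold change was -0.23 against 0.04 over all genes. On reads, Fdft1 shares 774 exonic bases, 18.3% of its 4227, with the opposite-strand gene Ctsb (chr14:63145150-63145923), which encodes the lysosomal protease cathepsin B and had a median of 98117 reads per library against 2039 for Fdft1. The labels and methods used here do not say whether counting used strand. Ctsb, named after its values were seen, fell with genotype in eWAT (-1.01 ± 0.19, adjusted p = 0.0113), where Fdft1 rose. With diet in eWAT Ctsb rose (1.40 ± 0.21, adjusted p = 0.000520), where Fdft1 was not called. The part of Ctsb reads in the counts of Fdft1 was not tested.

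The 3 genotype calls in eWAT were close to the threshold. Dropping WT HFD 1 or KO HFD 3 took the Fdft1 call to an adjusted p of 0.110 and 0.109. Dhcr7 lost its call without WT HFD 3 or 4 or without KO HFD 1, 3 or 4, with adjusted p up to 0.151. Srebf2 lost it without WT HFD 1, 2 or 4 or KO HFD 1, 3 or 4, up to 0.156. The values were larger among the 8 HFD-fed eWAT libraries of the first header series alone. They were 1.02 for Fdft1 (adjusted p = 0.0139), -1.09 for Dhcr7 (adjusted p = 0.0287) and -0.54 for Srebf2 (adjusted p = 0.0382). Macrophage markers fell in the same comparison, to a sum of 289 to 1527 CPM in KO HFD mice with 9 of 10 called lower, and adipocyte markers rose, to 48397 to 66263 CPM with 6 of 10 called higher. Fibroblast and progenitor markers were at 1335 to 3128 CPM in KO HFD mice, with 4 of 6 called lower. Their part in these changes was not tested. Knockout library 5, where Fdft1 was lowest and Lss and Dhcr7 highest among the KO HFD eWAT libraries, also had the highest macrophage sum of that group, 1527 CPM. Its sums of fibroblast and progenitor (3128 CPM), epididymis epithelium (1089 CPM) and mammary and skin epithelium markers (43.6 CPM) were the group's highest too. It was also the only library of the group in the second header series. The part of these traits was not tested. Library 2, which shared the high Lss and Dhcr7 levels and had the highest Insig1 and Hmgcs1, had the lowest macrophage sum, 289 CPM.

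Set against ND-fed wild type mice, HFD-fed Acod1-/- mice had 5 of the 8 genes called higher in eWAT (13.5% of all genes were) and 1 lower (13% of all genes, 26.5% in either direction). This comparison shares its libraries with those above, and its values stand beside them as a description. Insig1 was at 1.66 ± 0.30 (adjusted p = 0.00778), Hmgcs1 at 1.42 ± 0.34 (adjusted p = 0.0178), Dhcr7 at 1.07 ± 0.28 (adjusted p = 0.0256), Lss at 0.74 ± 0.26 (adjusted p = 0.0681) and Fdft1 at 0.64 ± 0.25 (adjusted p = 0.0910). Srebf2 was lower, at -0.53 ± 0.15 (adjusted p = 0.0310). For 4 genes, against 17.5% of all genes, the groups were apart. The Fdft1 call was lost in 16 of 22 alternative fits and stood at 0.32 (adjusted p = 0.612) with header series in the model. The Lss call was lost in 9 of 22, and that of Srebf2 in 1, with header series in the model (-0.55, adjusted p = 0.157).

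In iWAT, HFD feeding of wild type mice raised Insig1, Lss and Fdft1 and lowered Srebf2. Of all genes 25.9% were called higher and 24.2% lower, 50.1% in all. Insig1 measured 204, 213 and 243 CPM on ND and 552, 652, 611, 855 and 372 CPM on HFD, a log2 fold change of 1.498 ± 0.26 (SE, adjusted p = 0.00131). Srebf2 measured 64.2, 66.9 and 56.6 CPM on ND and 31.2, 31.4, 29.7, 37.7 and 37.4 CPM on HFD, a log2 fold change of -0.87 ± 0.18 (SE, adjusted p = 0.00324). Both pairs of groups were wide apart, and both calls held in all 20 alternative fits of this comparison. So the gene for SREBP-2 was lower while the gene for its retention protein was higher.

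Lss rose as in eWAT, from 22.2, 22.8 and 33.3 CPM to 47.9, 63.3, 78.1, 78.3 and 42.96 CPM (log2 fold change 1.28 ± 0.44, adjusted p = 0.0377). Fdft1 went from 28.7, 38.99 and 41.4 CPM to 46.3, 57.3, 58.8, 43.4 and 54.3 CPM (0.55 ± 0.24, adjusted p = 0.0915). Although the groups of both genes were apart, their calls were less firm than that of Insig1. With the header series as a term, Lss was at 0.82 (adjusted p = 0.2799) and Fdft1 at 0.49 (adjusted p = 0.273). Without iWAT WT ND 1 or 2 the adjusted p of Lss was 0.109 or 0.123. The Fdft1 call was lost in 12 of 20 alternative fits, and Ctsb, its neighbour on the opposite strand, rose as well (0.99 ± 0.17, adjusted p = 0.00128).

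Hmgcs1 measured 222, 227 and 303 CPM on ND and 384, 575, 606, 846 and 596 CPM on HFD in iWAT. Its groups were apart too, and in all 5 of the 8 genes had groups apart (46% of all genes). Yet the log2 fold change of 1.29 ± 0.61 missed the threshold (SE, adjusted p = 0.108). The spread in that fit was shared with the KO HFD group, and without iWAT KO HFD 2 the same comparison gave 1.27 (adjusted p = 0.00751). Leaving that library out also brought Dhcr7 past the threshold, at 0.66 (adjusted p = 0.0535) instead of 0.69 ± 0.41 (adjusted p = 0.197). Sqle was not called (0.42 ± 0.39, adjusted p = 0.410). Idi1 measured 12.7, 12.2 and 102 CPM on ND and 5.87, 7.77, 12.8, 13.4 and 8.69 CPM on HFD. Its fitted value of -2.11 ± 1.15 (adjusted p = 0.164) rested on library WT ND 3, since without that library and iWAT KO HFD 2 it was -0.36 (adjusted p = 0.654).

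Markers of other tissues and cell types moved with diet in iWAT. Lymphocyte markers, 6 in all, were at 485 to 725 CPM in ND-fed and 5.48 to 59.8 CPM in HFD-fed wild type mice, and all 6 were called lower. Skeletal muscle markers, also 6, ranged from 6.41 to 8218 CPM in the ND-fed group and from 17.7 to 311 CPM in the HFD-fed group, and all 6 were called lower. Of 6 brown and beige adipocyte markers 4 were lower, with sums of 186 to 1303 CPM on ND and 52.3 to 92.6 CPM on HFD. Other markers rose, among them 5 of 6 fibroblast and progenitor markers, with sums of 884 to 1561 CPM on ND and 2448 to 4508 CPM on HFD, and 6 of 6 endothelial markers, with sums of 546 to 750.5 and 673 to 1072 CPM. Adipocyte markers, 10 in all, summed to 43740 to 47680 CPM on ND and 49750 to 62110 CPM on HFD, with 4 called higher and 1 lower. The part of these tissues and cell types in the differences of the 8 genes was not tested. Macrophage sums of 442 to 585 CPM on ND and 446 to 1156 CPM on HFD overlapped in iWAT, with 8 of 10 markers called higher. Of the HFD-fed wild type iWAT libraries, only number 5 shared the header series of the ND-fed ones. Insig1, Lss, Fdft1 and Hmgcs1 of that library lay above all ND-fed libraries and Srebf2 below them.

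In iWAT no member was called between HFD-fed Acod1-/- and wild type mice, and edgeR called 0% of all genes higher and 0% lower. Unadjusted p-values under 0.05 were reached by 1062 genes in the higher and 1406 in the lower direction, and DESeq2 called 440 higher and 632 lower. By the same unadjusted threshold edgeR gave 1 of the 8 genes higher, Idi1, and 1 lower, Insig1, and DESeq2 called the same 2 genes at its adjusted p under 0.1. Insig1 measured 217, 276 and 381 CPM in KO HFD mice, the highest of them just above the lowest of the WT HFD libraries (372 CPM). Its log2 fold change of -1.08 ± 0.26 had an adjusted p of 0.137 in edgeR (unadjusted p = 0.00143) and was -1.05 with an adjusted p of 0.00227 in DESeq2. It passed in edgeR in the first header series alone (-1.43, adjusted p = 0.0216) and without KO HFD 3 (-1.30, adjusted p = 0.0246). The calls over all genes moved with it: edgeR called 1026 genes higher and 1131 lower of 14429 in the first series alone, 1401 and 1263 of 14851 without KO HFD 3, and 72 and 138 of 14831 without WT HFD 5.

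A single library carried most of the spread in this group. Hmgcs1 measured 185, 2098 and 441 CPM in the 3 KO HFD libraries of iWAT, Idi1 1.78, 316 and 13.0 CPM, Sqle 10.1, 41.7 and 19.8 CPM, Lss 24.8, 131 and 53.9 CPM and Dhcr7 8.69, 38.3 and 13.8 CPM. Library 2 was the highest of all 25 for Hmgcs1, Idi1, Sqle and Lss, and library 1 was the lowest of all 25 for Idi1. Insig1 did not share that pattern, being lower in library 2 than in any HFD-fed wild type library of iWAT. Fdft1, at 88.2, 38.5 and 49.6 CPM, was lowest in library 2. Srebf2 measured 29.9, 55.2 and 32.7 CPM there.

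Without KO HFD 2, fitted genotype differences in iWAT turned from 0.56 to -0.94 for Hmgcs1 (adjusted p = 0.350), from 3.46 to -0.39 for Idi1 (adjusted p = 0.893), from 0.43 to -0.21 for Sqle (adjusted p = 0.842) and from 0.14 to -0.66 for Lss (adjusted p = 0.440), none of them called with or without it. Of the mammary and skin epithelium markers, library 2 held 569 CPM against 3.33 and 3.96 CPM in the other KO HFD libraries, with keratin genes Krt14 at 427 and Krt5 at 46.5 CPM. The same library had 638 CPM of Soat1, which encodes a cholesterol-esterifying enzyme, against 10.7 and 9.46 CPM in the other KO HFD libraries. Library iWAT WT ND 3, where Idi1 was at 102 CPM, held 59.6 CPM of the epithelium markers with Krt14 at 41.7 CPM. In eWAT WT ND 2 the epithelium sum of 414 CPM came with Krt14 at 6.93 and Idi1 at 13.0 CPM. The part of these cells in the levels of the sterol genes was not tested.

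**Figure D3:**
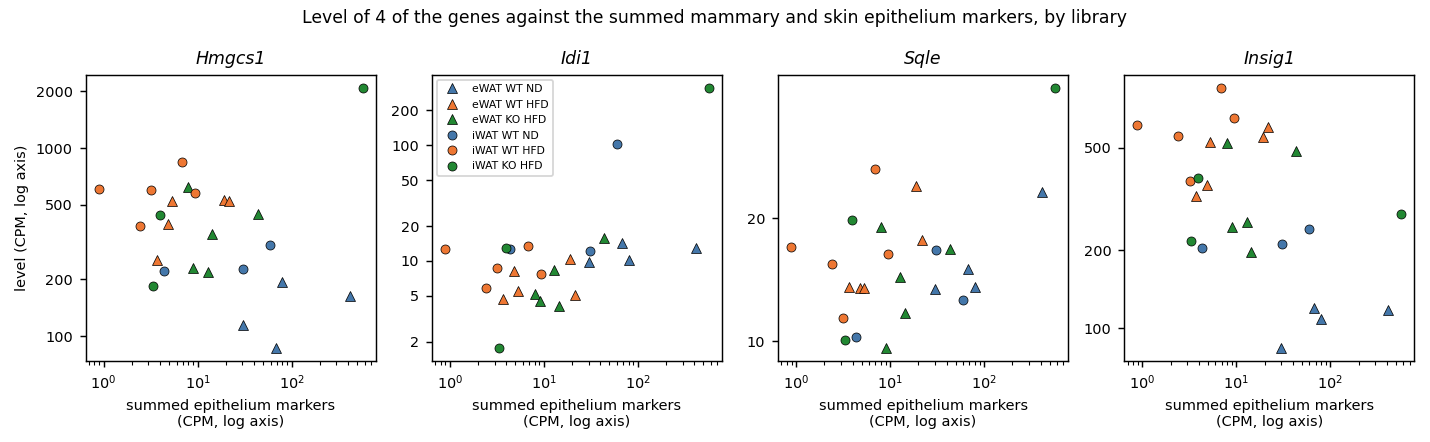
Level of Hmgcs1, Idi1, Sqle and Insig1 in CPM against the summed level of 6 mammary and skin epithelium markers in CPM, both on log axes, with 1 point per library (triangles eWAT, circles iWAT, blue WT ND, orange WT HFD, green KO HFD). The rightmost circle is iWAT KO HFD 2 at 569 CPM of markers and is the highest point for Hmgcs1, Idi1 and Sqle but not for Insig1.

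Compared with ND-fed wild type mice, HFD-fed Acod1-/- mice had Hmgcs1 (1.85 ± 0.66, adjusted p = 0.0611), Lss (1.42 ± 0.48, adjusted p = 0.0482) and Fdft1 (0.70 ± 0.27, adjusted p = 0.0769) called higher in iWAT and Srebf2 (-0.67 ± 0.21, adjusted p = 0.0348) called lower. Among all genes 18.5% were higher and 16.1% lower. Each of these calls depended on single libraries. Without KO HFD 2, Hmgcs1 and Lss fell to 0.33 (adjusted p = 0.529) and 0.61 (adjusted p = 0.226), while Srebf2 was at -0.99 (adjusted p = 0.00137) and Fdft1 at 0.93 (adjusted p = 0.0171). Without KO HFD 1, Fdft1 fell to 0.30 (adjusted p = 0.293) and Srebf2 was at -0.49 (adjusted p = 0.123). Of 20 alternative fits, calls were lost in 8 for Hmgcs1, 6 for Lss, 7 for Fdft1 and 5 for Srebf2. Insig1, at 0.42 ± 0.28 (adjusted p = 0.288), was not called. Groups were apart for 1 of the 8 genes, against 36% of all genes.

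Between depots, the lower eWAT levels of ND-fed mice were called for Insig1 (eWAT minus iWAT -1.03 ± 0.31, adjusted p = 0.0174) and Srebf2 (-0.44 ± 0.18, adjusted p = 0.0839, a call lost in 13 of 34 alternative fits with adjusted p up to 0.235), 2 of the 8 genes where 14.2% of all genes were called lower and 17.5% higher. On HFD the wild type depots had no called difference in any of the 8 genes in edgeR or DESeq2 (10.8% of all genes were called higher in eWAT and 7.75% lower, 18.6% in all). An unadjusted p under 0.05 was reached by 1 of the 8, Srebf2, and by 2213 genes in the higher and 1831 in the lower direction of all 15034. In KO HFD mice Idi1 was called lower in eWAT (-3.86 ± 0.91, adjusted p = 0.0276, against 1.8% of genes lower, 2.01% higher and 3.81% in either direction), and without iWAT KO HFD 2 its difference was 0.04 (adjusted p = 0.992).

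The diet effect itself differed between depots for 2 of the 8 genes, tested as an interaction in the fit of all 25 libraries (14% of all genes had a higher and 15% a lower effect in eWAT, 29% in all). Srebf2 was lowered by HFD in iWAT but not called in eWAT, and the difference of the effects was 0.79 ± 0.24 (SE, adjusted p = 0.0214), called in all 34 alternative fits. For Dhcr7 the effect in eWAT exceeded that in iWAT by 1.21 ± 0.50 (SE, adjusted p = 0.0865), a call lost in 12 of 34. Interaction terms of the other 6 genes were not called, so the larger fitted changes of Hmgcs1 (0.41 ± 0.67, adjusted p = 0.7096) and Insig1 (0.66 ± 0.40, adjusted p = 0.254) in eWAT do not show a depot difference. No genotype effect differed between depots by the same test, with 0 of the 8 genes called by edgeR and 0 by DESeq2. Of all genes edgeR called 0.00665% lower and 0% higher. An unadjusted p under 0.05 was reached by 2 of the 8, Idi1 and Srebf2, both lower, and by 862 genes in the lower and 662 in the higher direction of all 15034. The Idi1 term of -3.33 ran from -3.93 to 0.55 as libraries were left out in turn.

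Within groups, levels of 7 of the 8 genes varied in the same direction from library to library, to unequal degrees, and Fdft1 in the opposite direction. Log2 CPM values were centred on the mean of each group, so that diet, genotype and depot were removed, and compared over the 25 libraries as a description. All 21 pairs without Fdft1 had a positive Pearson r, from 0.03 (Insig1 with Srebf2) to 0.91 (Lss with Dhcr7) with a median of 0.66. All 7 pairs with Fdft1 had a negative r, from -0.60 (with Srebf2) to -0.24 (with Insig1) with a median of -0.46. Without the libraries iWAT WT ND 3 and KO HFD 2 the medians were 0.62 and -0.39, and no pair changed sign. These points share library depth, tissue composition and TMM scaling, and the centring did not remove header series. In eWAT of KO HFD mice, for example, library 5 stood 0.78 above the log2 group mean for Lss and 0.77 above for Dhcr7 but at -0.91 for Fdft1, and library 3 at -0.70 for Lss and 0.66 for Fdft1. Library 5 was the only library of that group in the second header series.

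**Figure D4:**
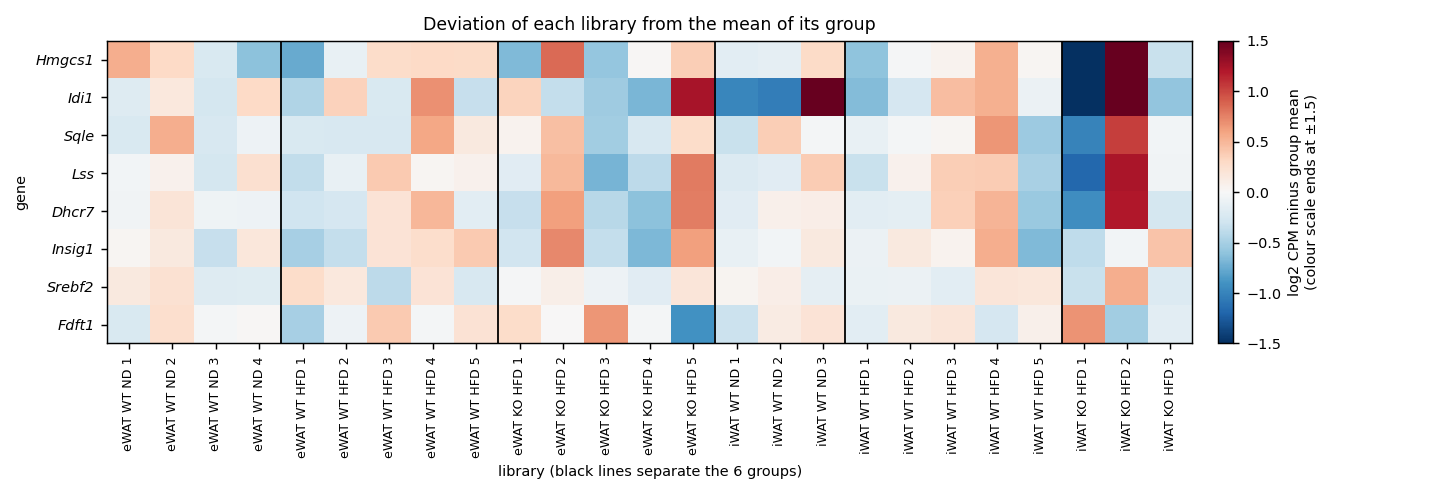
Log2 CPM of each gene minus the mean of its group, by library, red above and blue below the group mean, with the colour scale ending at ±1.5. Columns such as eWAT KO HFD 5 and iWAT KO HFD 2 are red for most genes and blue for Fdft1, and iWAT KO HFD 1 shows the reverse.

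The genes whose group-centred pattern was most like the mean of the 8 genes, out of 15026 others compared over the 25 libraries, were Mvd (r = 0.91), Slc27a4 (0.90), Cyp51 (0.88), Tmbim6 (0.88), Psph (0.85), Mvk (0.85), Echdc1 (0.85) and Ei24 (0.84). Mvd, Mvk and Cyp51 encode mevalonate diphosphate decarboxylase, mevalonate kinase and lanosterol demethylase, enzymes of the same pathway, and Slc27a4 encodes a fatty acid transport protein. Without the same pair of iWAT libraries their r ranged from 0.67 to 0.85, and none of them remained among the 8 highest, which were then Cyb5b (0.88), Vac14 (0.88), Slc31a1 (0.87), Snd1 (0.86), Leo1 (0.86), Slc11a2 (0.85), Xrcc3 (0.85) and Arf1 (0.85), so the order of likeness rested on those libraries.

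Of 16 other cholesterol synthesis enzymes, 7 were called higher and 2 lower on HFD in eWAT of wild type mice, with a median log2 fold change of 0.50, where 24.8% of all genes were higher and 26.9% lower. Sc5d, a desaturase acting late in the pathway, rose from 86.2 ± 14.3 to 197 ± 44.2 CPM (SD, n = 4 and 5), by 1.20 ± 0.20 (SE, adjusted p = 0.000858). Msmo1, a sterol methyl oxidase, rose from 24.2 ± 3.73 to 46.9 ± 5.69 CPM, by 0.95 ± 0.13 (SE, adjusted p = 0.000337). Ggps1, which leads away from sterols to geranylgeranyl diphosphate, fell by 0.28 on the log2 scale (adjusted p = 0.0153) and Lbr, which encodes the lamin B receptor and sterol reductase, fell by 0.24 (adjusted p = 0.0767). With genotype in eWAT, Msmo1 was lower (-0.53 ± 0.12, adjusted p = 0.0168), Ggps1 higher (0.29 ± 0.08, adjusted p = 0.0332) and the other 14 not called. Among all genes 9.13% were called higher and 10.8% lower in that comparison, 19.9% in all.

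In iWAT, 4 of these 16 enzymes were called higher, a share near the 25.9% of all genes, and 1 lower, where 24.2% of all genes were. Sc5d rose from 70.9 ± 4.36 to 235 ± 37.04 CPM (SD, n = 3 and 5), by 1.76 ± 0.18 (SE, adjusted p = 9.43e-05), and Nsdhl, a sterol dehydrogenase, by 1.23 ± 0.29 (SE, adjusted p = 0.00654). Lbr fell by 0.78 on the log2 scale (adjusted p = 0.00178). With genotype in iWAT none was called (0% of all genes were).

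Around the sterol sensor, 12 genes of sensing and SREBP processing had 1 member called higher and 4 lower on HFD in eWAT, against 24.8% and 26.9% of all genes. Insig2, the sister of Insig1, fell where Insig1 rose, from 116 ± 25.5 to 58.2 ± 6.00 CPM (-0.99 ± 0.17, adjusted p = 0.000834). Scap, the escort of SREBP proteins, fell by 0.56 on the log2 scale (adjusted p = 0.00315). Gpr155, a lysosomal cholesterol sensor, rose by 0.89 ± 0.19 (SE, adjusted p = 0.00274) in eWAT and by 0.77 ± 0.14 (SE, adjusted p = 0.00147) in iWAT. Of these 12 genes, 3 were called higher and 0 lower on HFD in iWAT, against 25.9% and 24.2% of all genes. In eWAT of KO HFD mice Insig2 was higher than in WT HFD mice (0.45 ± 0.16, adjusted p = 0.0785). Srebf1, which encodes SREBP-1, was called in none of the 4 comparisons, with values from -0.42 to 0.51.

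Of 17 listed genes of uptake and intracellular transport 16 were tested, and 6 were called higher and 1 lower on HFD in eWAT (24.8% and 26.9% of all genes) and 7 higher and 2 lower in iWAT (25.9% and 24.2% of all genes). Scarb1, the HDL receptor SR-BI, rose on HFD in iWAT by 1.23 ± 0.21 (SE, adjusted p = 0.00117), and Npc2, which carries cholesterol out of lysosomes, by 1.27 ± 0.22 (SE, adjusted p = 0.00117). With genotype in eWAT no gene of this list was called higher and 7 were lower (9.13% and 10.8% of all genes), among them Lipa, the lysosomal lipase that frees cholesterol from its esters (-1.91 ± 0.43, adjusted p = 0.0168). Lipa had risen on HFD from 81.0 ± 19.1 to 323 ± 152 CPM (1.996 ± 0.47, adjusted p = 0.00509).

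Of 12 genes of efflux, esterification and LXR signalling, 5 were called higher and 2 lower on HFD in eWAT (24.8% and 26.9% of all genes), and 1 higher and 4 lower with genotype (9.13% and 10.8% of all genes). Pltp, the phospholipid transfer protein, went from 139 ± 53.9 to 752 ± 163 CPM on HFD (2.44 ± 0.40, adjusted p = 0.000789) and was at 231 ± 147 CPM in KO HFD mice (-1.70 ± 0.36, adjusted p = 0.0139). Soat1, with 103 ± 59.2 CPM in WT HFD and 20.8 ± 15.8 CPM in KO HFD mice, differed by -2.32 ± 0.50 (adjusted p = 0.0144). These directions are those of the macrophage sums given above, and the part of macrophages in them was not tested. In iWAT 11 genes of this list were tested, with 4 called higher and 0 lower on HFD (25.9% and 24.2% of all genes).

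Several lipogenic targets of SREBP-1 were lower on HFD. None of the 8 listed was called higher and 5 were called lower on HFD in eWAT, with a median of -1.08, and 4 were lower in iWAT, with a median of -0.81. Of all genes 26.9% were lower in eWAT and 24.2% in iWAT. Acaca, acetyl-CoA carboxylase, fell by 1.73 on the log2 scale in eWAT (adjusted p = 0.00217) and by 1.75 in iWAT (adjusted p = 0.00128). Elovl6, a fatty acid elongase, fell by 2.72 in iWAT (adjusted p = 0.000632), and Pnpla3 by 1.60 in eWAT (adjusted p = 0.000261). With genotype in eWAT 3 of the 8 were called higher (9.13% of all genes), among them Scd1, stearoyl-CoA desaturase (1.07 ± 0.28, adjusted p = 0.0284), and Pnpla3 (0.78 ± 0.19, adjusted p = 0.0208).

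**Figure D5:**
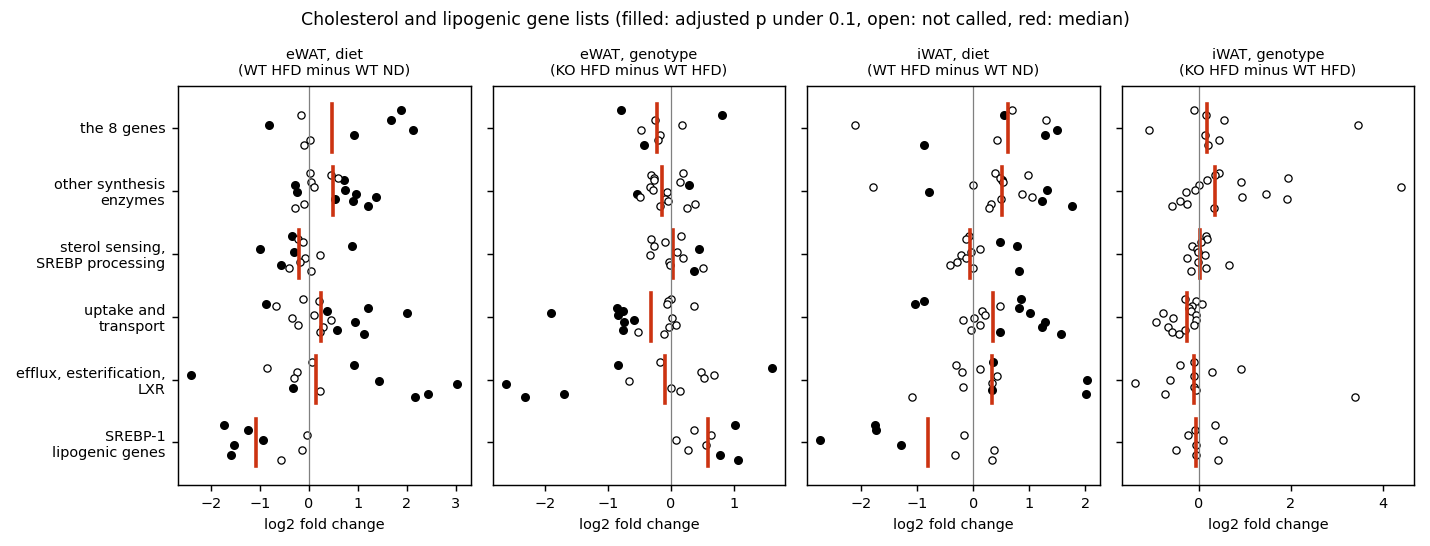
Log2 fold change of every tested gene of 6 lists in the diet and genotype comparisons of both depots, filled where the adjusted p was under 0.1, with the median of each list as a red line. On HFD the medians of the 8 genes and of the other synthesis enzymes lie right of 0 in both depots and that of the SREBP-1 lipogenic genes left of it, and no point is filled for genotype in iWAT.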

How the data were processed

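Adipose RNA was made into directional mRNA libraries and sequenced. Per the study's methods, the authors trimmed reads with cutadapt, discarded short and contaminant reads and aligned the rest with STAR to GRCm38 (mm10 per the labels). The counting program, its use of strand and the tool versions are not given in the sources used here. The authors deposited counts of whole reads per gene, unnormalized, and FPKM per kilobase of their cDNA length, of which the FPKM scaled to reads counted on genes was used here. That FPKM was recomputed from counts and lengths within rounding. Reads of no gene and ambiguous reads stayed out of library sizes. GENCODE names matched all 8 members by Ensembl ID. The FPKM scaled to all reads was not used.

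Libraries were grouped by the labels. Counts were fitted with edgeR 4.0.16 (R 4.3.3; TMM, quasi-likelihood F-test) on genes whose mean CPM was 1 or more, 14936 in eWAT, 14801 in iWAT and 15034 in the fit of all 25 libraries that gave depot differences and interactions. Genes were called at a Benjamini-Hochberg adjusted p under 0.1 over all genes tested. Standard errors were taken as the fold change over the square root of F. The scripts were tested on simulated data. DESeq2 1.42.0 and other settings were alternatives, listed with their effect under the dependence on processing. The study's methods used DESeq2. The 8 members and all lists were chosen with earlier results of these data known. Named besides the members were, from each wider list and comparison, up to 2 called genes a direction with the smallest adjusted p, of which some are given, always Srebf1, and the 8 genes most like the members. Some genes of the lists are not reported here. Mouse numbers in the titles were not used as pairs. Medians of all genes and shares called stand in place of tests on lists. The p-values judge each difference against a spread between libraries that was estimated over all groups of the fit. Counting error was small, with 42.1 M reads in the median library.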

Additional observations from a re-analysis of the deposited data

Results flagged for a closer look

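The effect of HFD differed between depots for 2 of the 8 genes by the interaction test of the edgeR fit, Srebf2 (0.79 on the log2 scale) and Dhcr7 (1.21, eWAT effect minus iWAT effect). Of all genes 14% had a higher and 15% a lower effect in eWAT, 29% in all, so the count of 2 does not stand out. The Srebf2 call held in all 34 alternative fits and the Dhcr7 call (adjusted p = 0.0865) was lost in 12 of 34.

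In eWAT, the ND-fed library 2 lay above the other 3 of its group for Sqle, with 23.2 CPM against 13.4 to 15.04 CPM, and for Dhcr7, with 10.2 CPM against 8.47 to 8.62 CPM. These were the only 2 of 32 groups of 4 or 5 libraries to pass Dixon's 95% value, and chance alone passes about 1 in 20. The same library held 8930 CPM of epididymis epithelium markers and 414 CPM of mammary and skin epithelium markers, whose part in both values was not tested.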

How the results depend on the processing

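Counts of the 8 genes called moved by over 1.5 times as follows. With adjusted p under 0.05, 0 instead of 1 was lower for diet in eWAT, 0 instead of 2 lower for genotype in eWAT, 3 instead of 5 higher for KO HFD against WT ND in eWAT and 1 instead of 3 in iWAT, 1 instead of 2 lower between depots on ND, and 1 instead of 2 for diet by depot. Without a filter on low counts 0 was lower for diet in eWAT, 3 higher for KO HFD against WT ND in eWAT, 1 lower between depots on ND and 1 higher for diet by depot. With DESeq2 size factors 0 was lower for diet in eWAT. The DESeq2 Wald test called 1 higher and 1 lower for genotype in iWAT, where edgeR called 0, and the first header series alone gave 1 lower. With the series as a term, 0 was lower for diet in eWAT, 1 instead of 3 higher for diet in iWAT, and for KO HFD against WT ND 0 lower in eWAT and 0 higher and 0 lower in iWAT. Fits of only the groups compared gave 1 lower for genotype in eWAT, 3 higher for KO HFD against WT ND in eWAT, 5 higher and 2 lower for diet in iWAT, 0 higher and 0 lower for KO HFD against WT ND in iWAT, 4 lower between depots on ND, 1 higher on HFD, 0 lower in KO HFD, and 1 instead of 0 lower for diet by depot. Without iWAT WT ND 3 and KO HFD 2, left out after seeing the data, 5 were higher for diet in iWAT, 1 higher for KO HFD against WT ND in iWAT, 1 higher between depots on HFD and 0 lower in KO HFD. With each library left out in turn, counts ran for diet from 4 to 4 higher and 0 to 1 lower in eWAT and from 1 to 5 higher and 1 to 2 lower in iWAT. For genotype they ran from 0 to 1 higher and 0 to 2 lower in eWAT and from 0 to 1 in either direction in iWAT. For KO HFD against WT ND they ran from 3 to 5 higher and 1 to 2 lower in eWAT and from 0 to 3 higher and 0 to 2 lower in iWAT. Between depots they ran from 1 to 4 lower on ND, 0 to 1 higher on HFD and 0 to 3 lower in KO HFD, and for diet by depot from 1 to 2 higher.

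Values of Idi1 turned sign, the 1 gene of the 8 to do so in a value called under either setting. For KO HFD against WT ND in iWAT (1.36) they ran from -2.50, without KO HFD 2, to 3.16 as libraries were left out in turn. For the depot difference in KO HFD (-3.86) they ran from -4.45 to 0.0363, the latter without iWAT KO HFD 2, and stood at 0.0359 without that library and iWAT WT ND 3. Of the log2 fold changes of the 8 genes under all alternatives, 2226 kept their side of the threshold, 122 lost and 33 gained a call, and values called under neither setting could change sign. The cause was not tested where none is given. Whether replicate numbers pair the libraries was not settled, since same-numbered deviations (r from -0.30 to 0.49) were not set against different-numbered ones. The highest r, 0.49, was that of eWAT and iWAT WT HFD 4. The fit of all 25 libraries treated them as independent. With the number as a replicate block, 3 instead of 5 genes were higher for KO HFD against WT ND in eWAT and 1 instead of 3 in iWAT, and 0 instead of 1 was lower between depots in KO HFD. Header series and diet overlap almost wholly, with 1 HFD-fed wild type library a depot in the series of the ND-fed ones.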
